A study of Mus musculus with 2 samples.

Results

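Mature miRNAs are short RNAs cut from hairpin precursors, and they repress mRNAs that pair with their seed, the bases from position 2 to 8. The genes described here are 6 of the 1973 miRNA genes in the count tables of mouse embryonic midbrain, and were taken by name for their place in metabolic host genes or their link to oxygen. Mir103-1, Mir103-2 and Mir107 lie in introns of the Pank genes, Mir33 lies in an intron of Srebf2, and Mir210 is the miRNA gene best known for its induction in low oxygen. The last, Gm25301, is annotated on the strand opposite Mir378a, a hairpin in an intron of Ppargc1b, so its opposite-strand reads were used. Small RNA from midbrain of embryos of strain B6NCrl at embryonic day 16.5, described as healthy, had been sequenced in 2 libraries. Each library came from its own pool of male and female embryos. The pool of replicate 2 held 37 embryos, and no size is given for the other pool in the sources used here. As there was 1 group, the values below are levels and their spread between the libraries, with no contrast between conditions.

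Pantothenate kinases, the products of Pank1, Pank2 and Pank3, catalyse the first committed step of coenzyme A synthesis. Each gene carries a hairpin of the mir-103 and mir-107 family, which in mouse liver and fat is known to lower insulin sensitivity. Srebf2 encodes SREBP2, the transcription factor that turns on cholesterol synthesis and uptake, and mir-33 from its intron represses Abca1, the transporter that exports cholesterol. Ppargc1b encodes PGC-1beta, a coactivator of mitochondrial genes, and mir-378 acts on energy metabolism. Mir210 is a target of the hypoxia-inducible factors, and its product represses ISCU, which assembles the iron-sulfur clusters that mitochondrial respiration needs.

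Mature sequences in RefSeq (GRCm38.p6) were looked up by gene symbol, which gave those of 5 of the 6 genes. They are shown because the sequences decide which reads can be told apart. Gm25301 had no match under its own symbol. The sequence of Mir378a is not shown, and which of its reads can be told apart was not analysed. Capitals mark the seed.
miR-103-3p (Mir103-1 and Mir103-2): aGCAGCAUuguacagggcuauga
miR-107-3p: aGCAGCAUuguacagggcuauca
miR-103-1-5p: gGCUUCUUuacagugcugccuug
miR-103-2-5p: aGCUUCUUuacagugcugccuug
miR-107-5p: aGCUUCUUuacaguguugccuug
miR-33-5p: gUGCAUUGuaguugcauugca
miR-33-3p: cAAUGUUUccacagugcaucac
miR-210-3p: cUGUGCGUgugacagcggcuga
miR-210-5p: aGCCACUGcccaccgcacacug
The 3p arms of the 3 Pank hairpins shared 1 seed, and so did their 5p arms. In the RefSeq table no other mouse gene carried either seed, and none shared a seed with an arm of Mir33 or Mir210. Positions are counted from 1 at the 5′ end of the mature sequence. The 3p arm of miR-107 differed from that of miR-103 by G22C alone. Between Mir103-1 and Mir103-2 the 3p arms were identical over all 23 bases. Their 5p arms differed by G1A, and the 5p arm of Mir107 differed from that of Mir103-2 by C16U.

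The hairpins show how much sequence the Pank copies can call their own. Capitals mark bases that lie in no window of 20 bases found in another of the 1005 RefSeq hairpins.
Mir103-1 (chr11:35782396-35782481, plus strand): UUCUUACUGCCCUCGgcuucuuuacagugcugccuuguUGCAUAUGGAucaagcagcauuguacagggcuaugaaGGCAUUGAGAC
Mir103-2 (chr2:131288052-131288137, plus strand): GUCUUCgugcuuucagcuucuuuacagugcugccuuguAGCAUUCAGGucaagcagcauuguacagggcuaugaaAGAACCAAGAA
Mir107 (chr19:34820687-34820773, minus strand): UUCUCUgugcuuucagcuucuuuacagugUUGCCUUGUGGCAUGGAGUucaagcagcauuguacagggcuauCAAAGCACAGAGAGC
Mir103-1 and Mir103-2 shared a run of 27 bases that covers the whole miR-103-3p, with 3 bases before it and 1 after it. A read inside that run has no single place of origin. For Mir107, the first 21 bases of the 3p arm also occur in both mir-103 hairpins, and a read from the start of the arm needs 22 bases to differ from them. Windows of 20 bases found in no other hairpin numbered 55 of 67 for Mir103-1, 51 of 67 for Mir103-2 and 59 of 68 for Mir107. For Mir33 and Mir210 all windows were their own, and their longest run shared with another hairpin was 11 bases for Mir33 and 10 bases for Mir210.

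The positions of the hairpins in their hosts were alike among the Pank genes. In GENCODE M21 on mm10, Mir103-1 (ENSMUSG00000065553.1) lies in intron 5 of 6 of Pank3, Mir103-2 (ENSMUSG00000065563.1) in intron 5 of 6 of Pank2, and Mir107 (ENSMUSG00000065594.1) in intron 5 of 6 of Pank1. Each hairpin starts within 1 kb of the exon before it, at 688 bases in Pank3, 454 in Pank2 and 326 in Pank1. The introns themselves are 1740, 5801 and 7282 bases long in Pank3, Pank2 and Pank1. Mir33 (ENSMUSG00000065465.1, chr15:82198122-82198190) lies in intron 16 of 18 of Srebf2. It too starts close to the exon before it, at 335 bases. Mir378a (chr18:61397835-61397900, minus strand) lies inside the span of Gm25301 (ENSMUSG00000093026.1, chr18:61397813-61397925, plus strand), in intron 1 of 11 of Ppargc1b, an intron of 76981 bases. Mir210 (ENSMUSG00000065551.1, chr7:141221384-141221493, minus strand) lies outside the other annotated genes, with Rassf7 nearest at 2725 bases on the other strand.

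**Figure D1:**
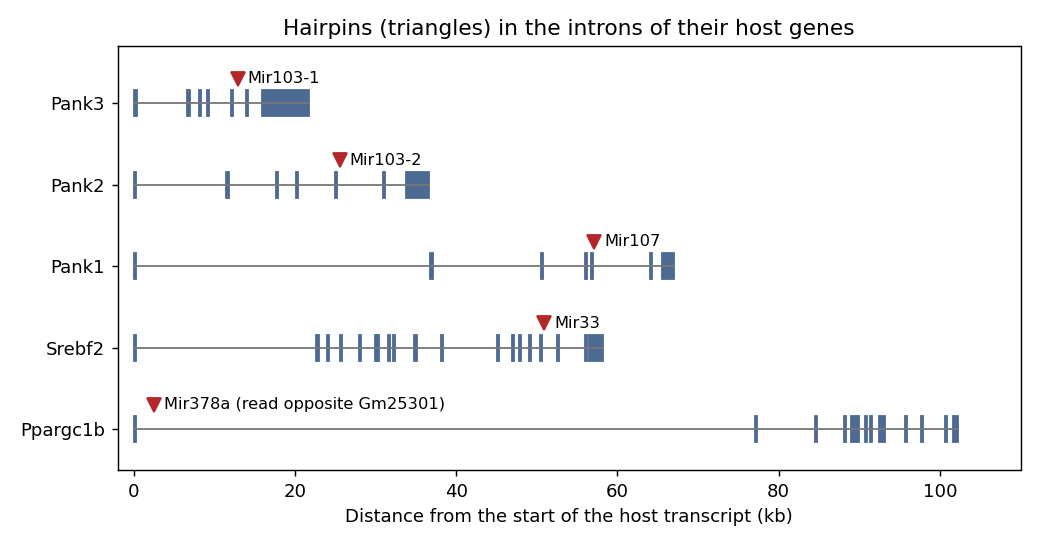
Place of the intronic hairpins in their host genes, drawn on the APPRIS principal transcript of each. The horizontal axis is the distance in kb from the start of the host transcript, boxes are exons drawn at least 0.25 kb wide, lines are introns and triangles are hairpins. Mir103-1, Mir103-2 and Mir107 each stand in intron 5 of their Pank gene, and Mir378a stands near the start of Ppargc1b.

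Levels are CPM, the read count scaled to the sense-strand reads over all miRNA genes, which numbered 6151299 in replicate 1 and 5312642 in replicate 2. In replicate 1, 1 read was worth 0.163 CPM, and in replicate 2 it was worth 0.188 CPM. Inserts are whole short RNAs, and a CPM sums the counted reads of both arms of a gene without scaling by hairpin length. In a bulk sample, fewer cells that hold a miRNA and less of it per cell cannot be told apart. The labelled tissue was checked with neuron markers, of which 9 of the 10 listed genes were analysed. They summed to 25853 CPM in replicate 1 and 24638 CPM in replicate 2. Mir137 and Mir153 led them, at 15108 ± 1072 and 5868 ± 388 CPM (SD, n = 2), and none was at 0. Of the 9 markers 7 were detected, and the mir-124 copies and Mir9-2 were low. The level was 5.04 ± 0.47 CPM for Mir124a-1 and 3.86 ± 0.40 CPM for Mir124a-2. The markers not detected were Mir9-2, at 1.34 ± 1.10 CPM, and Mir124a-3, at 0.54 ± 0.30 CPM. Copies of these genes share mature sequence, so their counts can leave out shared reads. The libraries were not copies of 1 library, since a chi-square over detected genes came to 85.6 per degree of freedom. All 6 genes were detected, which means 10 or more reads in both libraries, as were 412 genes in all (20.9%).

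The reads of the 6 genes together equalled 0.489% of the summed sense-strand reads in replicate 1 and 0.512% in replicate 2. Those of Gm25301, taken from the opposite strand, are not part of that sum. The levels of the 6 genes spanned 638-fold, with Mir107 at the top and Mir103-1 at the bottom.

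Mir107 had 14062 reads in replicate 1 and 13446 in replicate 2, which is 2286 and 2531 CPM (2408 ± 173, SD, n = 2). It ranked 69 among the genes of the tables and stood above 83.3% of detected genes. Gm25301, read opposite its annotated strand, had 12561 and 11306 reads, or 2042 and 2128 CPM in replicates 1 and 2 (2085 ± 60.9). It would rank 73 and stood above 82.3% of detected genes. On the annotated strand of Gm25301 both libraries had 0 reads, which allows up to 3 reads, or 0.488 CPM in replicate 1 and 0.565 CPM in replicate 2. The strand of Mir378a was thus at least 4187-fold higher than the annotated strand of Gm25301 in replicate 1, and at least 3769-fold higher in replicate 2. These reads made up 7.78% and 8.35% of all opposite-strand reads in replicates 1 and 2. For the other 5 genes, the opposite strand had 0 reads in both libraries.

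Mir210 had 377 and 312 CPM in replicates 1 and 2 (345 ± 45.9), from 2321 and 1660 reads. It ranked 152, above 63.1% of detected genes. Mir33 stood at 132 and 96.8 CPM in replicates 1 and 2 (114 ± 24.9), from 812 and 514 reads. It ranked 206 and lay at the middle of the detected genes, whose median was 111 CPM. Of the 6 genes, Mir33 had the widest spread between the libraries relative to its level, with an SD of 21.8% of its mean. The same figure was 13.6% for Mir103-1, 13.3% for Mir210, 7.19% for Mir107, 2.92% for Gm25301 and 2.80% for Mir103-2.

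Mir103-2 had 276 reads in replicate 1 and 248 in replicate 2, or 44.9 and 46.7 CPM (45.8 ± 1.28). Mir103-1 had 21 and 22 reads in replicates 1 and 2, or 3.41 and 4.14 CPM (3.78 ± 0.51). It stood above 11.4% of detected genes. Its 95% Wilson interval, which like all intervals here covers counting error only, ran from 2.23 to 5.22 CPM in replicate 1 and from 2.73 to 6.27 CPM in replicate 2. The counts of both genes leave out reads that lie wholly in the 27-base run they share, if only reads with 1 place were counted. These levels are therefore not the levels of mature miR-103-3p, and how much was left out was not tested.

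**Figure D2:**
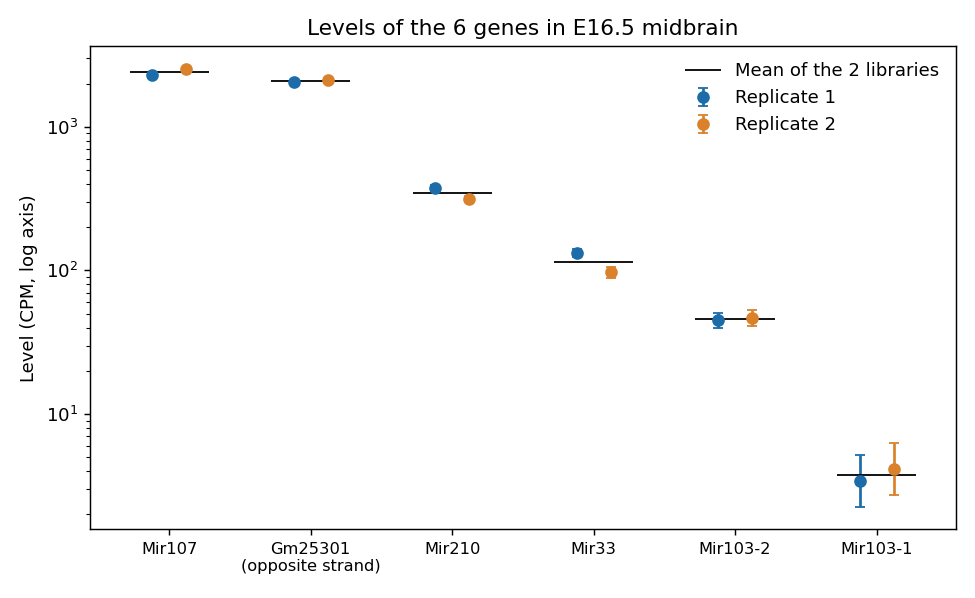
Levels of the 6 genes in both libraries. The vertical axis is CPM on a log scale, points are replicate 1 and replicate 2 with 95% Wilson intervals for counting error, and black lines are the means. The order from Mir107 at 2408 CPM to Mir103-1 at 3.78 CPM was the same in both libraries, and the counting intervals of Mir103-1 are the widest.

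In decreasing order the levels were those of Mir107, Gm25301, Mir210, Mir33, Mir103-2 and Mir103-1. No pair of neighbours in this order overlapped over the 2 libraries. With 2 libraries per gene, the smallest two-sided p of an exact permutation test is 0.33, and none was run. The closest neighbours were Mir107 and Gm25301, with Mir107 1.12 times as high in replicate 1 and 1.19 times in replicate 2. Mir210 was 2.86 times as high as Mir33 in replicate 1 (95% exact interval 2.64 to 3.10) and 3.23 times in replicate 2 (2.92 to 3.57). Mir107 was 6.06 times as high as Mir210 in replicate 1 and 8.10 times in replicate 2. Per 100 bases of annotated gene, the order of levels was the same, from 2768 CPM for Mir107 and 1845 CPM for Gm25301 to 4.39 CPM for Mir103-1. With the 66 bases of the Mir378a hairpin as the length, a choice made after seeing the data, Gm25301 came to 3159 CPM per 100 bases and stood above Mir107.

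**Figure D3:**
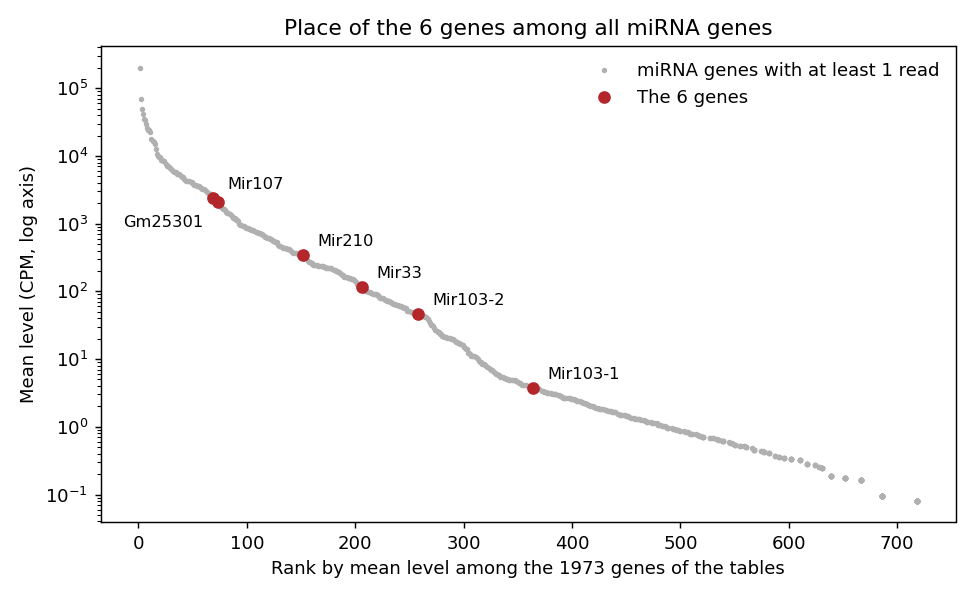
Place of the 6 genes among all miRNA genes with at least 1 read. The horizontal axis is the rank by mean level, the vertical axis is mean CPM on a log scale, grey points are all genes and red points are the 6. Mir107 and Gm25301 stand at ranks 69 and 73, while Mir103-1 is at 364.

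Within the Pank group nearly all counted reads were those of Mir107. In replicate 1 it held 97.9% of the reads of the 3 genes, with a 95% Wilson interval of 97.7 to 98.2. The share was 98.03% in replicate 2, with an interval of 97.8 to 98.3. Mir103-2 held 1.92% (1.71 to 2.16) and 1.81% (1.60 to 2.04) in replicates 1 and 2. The share of Mir103-1 was 0.146% (0.0957 to 0.223) in replicate 1 and 0.160% (0.106 to 0.243) in replicate 2. The shares differed little between the libraries, and the interval of each in 1 library held the value in the other. In counted reads Mir107 was 47.3 times both mir-103 genes together in replicate 1 (95% exact interval 42.2 to 53.3). The same figure was 49.8 in replicate 2 (44.1 to 56.4). If only reads with 1 place were counted, reads of whole miR-103-3p were left out. Those of miR-107-3p with its first 22 bases could be kept. These shares and ratios are then not those of the mature miRNAs, and how far they depart was not tested.

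The mir-103 copies also differed from each other in counted reads. Those of Mir103-2 were 13.1 times those of Mir103-1 in replicate 1 (8.43 to 21.6) and 11.3 times in replicate 2 (7.28 to 18.3). If only reads with 1 place were counted, these ratios need not be those of the copies themselves, which was not tested. As both copies encode the same 3p arm, reads that tell them apart come from the 5p arm with its first base, or from bases beyond the shared runs. From the start of the 5p arm, 10 bases set Mir103-1 apart from every other RefSeq hairpin, and 16 bases set Mir103-2 apart. The tables give no counts by arm, so which arm the 276 and 248 reads of Mir103-2 came from in replicates 1 and 2 was not analysed here. Reads that mapped to several places numbered 4816290 in replicate 1 and 4391928 in replicate 2, and they are not split by gene.

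Both libraries were compared gene by gene with an exact binomial test on the reads, with Benjamini-Hochberg adjustment over all 412 detected genes. It sets 1 library against the other and says nothing of conditions, and its only error is that of counting. Ratios are log2 of replicate 1 over replicate 2, where 0.5 was added to every count. Of the 6 genes 4 passed, against a background of 47.6% of detected genes. These 4 are the members at 100 CPM or more, and of all 211 genes at that level 74.4% passed. Mir33 and Mir210 were higher in replicate 1 and Mir107 and Gm25301 were lower in it. In that direction the background was 29.1% of detected genes higher in replicate 1 and 18.4% higher in replicate 2. With TMM factors 95 genes were higher in replicate 1 and 91 in replicate 2, against 120 and 76 with CPM.

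Mir33 had the largest ratio of the 6, at 0.45 (95% exact interval 0.29 to 0.61, adjusted p = 1.18e-07 by the binomial test), or 1.36-fold. By size this ratio was number 12 of the 211 genes at 100 CPM or more, whose SD of log2 ratios was 0.29. Mir210 followed at 0.27 (0.18 to 0.36, adjusted p = 1.69e-08 by the binomial test), or 1.21-fold, at number 45. Mir107 had a ratio of -0.15 (-0.18 to -0.11, adjusted p = 1.91e-16 by the binomial test), at number 98. The ratio of Gm25301 was -0.06 (-0.10 to -0.02, adjusted p = 0.00386 by the binomial test) and became -0.11 with TMM factors. For Mir103-2 the ratio was -0.06 (-0.31 to 0.20, adjusted p = 0.809 by the binomial test), also -0.11 with TMM factors, and for Mir103-1 it was -0.28 (-1.21 to 0.65, adjusted p = 0.705 by the binomial test). The median ratio of the 6 was -0.06, beside 0.05 over all detected genes. In the exact test of edgeR with a biological coefficient of variation fixed at 0.2, a setting that adds spread between pools, 0 of the 6 genes passed and each had an adjusted p of 1, against a background of 1.46%. Without adjustment, 0 of the 6 had a p below 0.05 in that test, and 4 did in the binomial test.

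**Figure D4:**
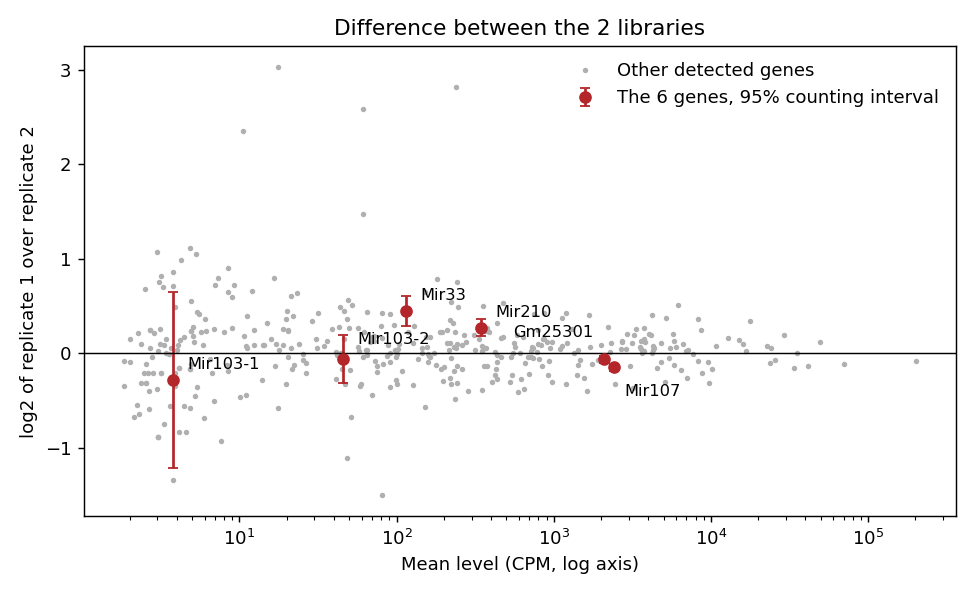
Difference between the libraries for each detected gene. The horizontal axis is mean CPM on a log scale, the vertical axis is log2 of replicate 1 over replicate 2, grey points are other detected genes and red points are the 6 with 95% exact intervals for counting error. Mir33 at 0.45 and Mir210 at 0.27 lie above 0, and the interval of Mir103-1 spans -1.21 to 0.65.

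Markers of other cell types were compared between the libraries as well, and their part in the ratios of the 6 genes was not tested. All 5 epithelium markers (Mir200a, Mir200b, Mir200c, Mir141 and Mir429) were higher in replicate 1 and summed to 663 CPM there, against 116 CPM in replicate 2, with none at 0. All 5 also passed at the fixed BCV of 0.2, the only marker list of which any gene did, against 1.46% of all detected genes. Of the liver markers Mir122 and Mir192, 1 passed the binomial test (Mir122, higher in replicate 1), and they summed to 166 CPM in replicate 1 and 146 CPM in replicate 2. The blood markers, with 4 of the 5 listed genes analysed and none at 0, summed to 410 CPM in replicate 1 and 487 CPM in replicate 2, and 2 of the 4 were called higher in replicate 2. The endothelium marker Mir126a had 23067 and 24810 CPM in replicates 1 and 2, and was called higher in replicate 2. Of all detected genes, 29.1% were called higher in replicate 1 and 18.4% higher in replicate 2. Among those at 100 CPM or more, 74.4% passed in either direction. For muscle, a tissue known for mir-378, the 5 analysed markers, of which 1 was detected and 0 passed, summed to 19.2 CPM in replicate 1 and 18.1 CPM in replicate 2, with Mir1a-1, Mir133a-1 and Mir133a-2 at 0 reads in both. Copies of these genes share mature sequence, so 0 counted reads do not show absence.

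The genes nearest in mean level give a scale for each of the 6. They were taken by level alone, over 2 libraries. Mir107 stood between Mir128-1 at 2456 ± 387 CPM and Mir125b-1 at 2318 ± 121 CPM. Gm25301 stood between Mir204 at 2230 ± 303 CPM and Mir101b at 2010 ± 90.2 CPM. The SDs of these neighbours overlapped the levels of both genes. Mir210 lay between Mir374b (349 ± 14.1 CPM) and Mir669o (336 ± 24.7 CPM), and Mir33 between Mir666 (118 ± 13.3 CPM) and Mir3475 (108 ± 10.1 CPM). Mir103-2 had Mir1198 above it (46.1 ± 3.49 CPM) and Mir34a below it (45.1 ± 3.56 CPM). Mir103-1 had Mir1912 above it (3.79 ± 2.37 CPM), and Mir499 had the same 21 and 22 reads as Mir103-1.

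Genes of the mir-15 group share a core of 6 bases with miR-103 and miR-107, set 1 base further in, and are known as brakes on the cell cycle. The 4 with the highest levels are shown with the core in capitals, beside the miR-107 arm.
miR-107-3p: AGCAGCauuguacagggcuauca
miR-322-5p: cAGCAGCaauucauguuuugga
miR-15a-5p: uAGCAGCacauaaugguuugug
miR-16-5p (Mir16-1): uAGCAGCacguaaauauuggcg
miR-15b-5p: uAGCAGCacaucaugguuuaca
In miR-107 the core starts at base 1, and in the others at base 2, so that the seeds differ. Of 8 listed genes 7 were analysed and all 7 were detected, with a median of 905 CPM. They summed to 13770 CPM in replicate 1 and 13386 CPM in replicate 2. Mir107 at 2408 ± 173 CPM ranged below Mir322 (6652 ± 333 CPM) and Mir15a (3596 ± 91.8 CPM), and above Mir16-1 (1568 ± 199 CPM) and Mir15b (905 ± 56.0 CPM). Mir16-1 and Mir16-2 encode the same miR-16-5p, so the count of Mir16-1 can leave out reads of that arm, as for the mir-103 copies. The count of Mir107 can likewise leave out reads that lie within the first 21 bases of its 3p arm. Between the libraries 4 of the 7 were higher in replicate 1, 2 were higher in replicate 2 and 1 did not pass, with a median ratio of 0.05. The same shares over all detected genes were 29.1% and 18.4%, with a median of 0.05, and at the fixed BCV 0 of the 7 passed. All of the 7 but Mir503 lay at 100 CPM or more, where 74.4% of genes passed in either direction. Mir16-1, like Mir107, was lower in replicate 1 (ratio -0.26), while Mir503, at 80.3 ± 16.9 CPM, had a ratio of 0.43, close to that of Mir33.

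**Figure D5:**
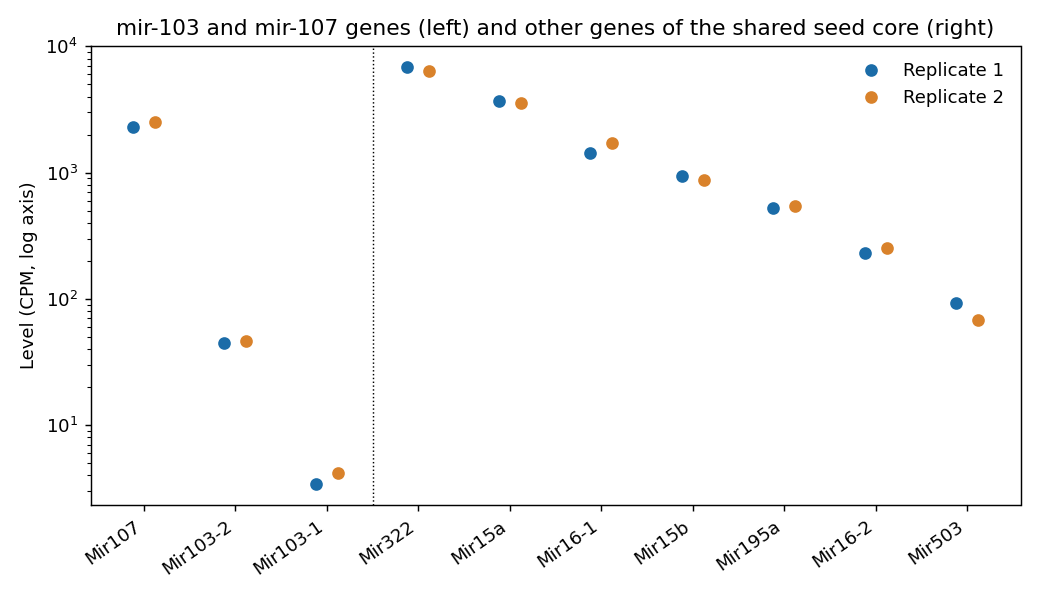
Levels of the mir-103 and mir-107 genes (left of the dotted line) and of the 7 other genes with the shared core (right). The vertical axis is CPM on a log scale and points are replicate 1 and replicate 2. Mir107 lies between Mir15a at 3596 CPM and Mir16-1 at 1568 CPM, and the mir-103 genes lie below all 7 others. Counts of genes that share a mature arm, such as the mir-103 copies, can leave out its reads.

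Other miRNA genes known for a role in cholesterol and fatty acid metabolism place Mir33 among its functional relatives. All 11 of that list were detected, with a median of 198 CPM. Mir128-1, whose product represses cholesterol transporters, led it at 2456 ± 387 CPM, followed by Mir370 (1431 ± 86.8 CPM), Mir27b (799 ± 40.6 CPM) and Mir185 (558 ± 31.0 CPM). Mir33 at 114 ± 24.9 CPM was below these 4, but not below the whole list, which ran down to 44.0 ± 0.14 CPM. Counts of genes that share a mature arm can leave out its reads, so this low end may not be that of the mature miRNAs. Between the libraries 3 of the 11 were higher in replicate 1, 4 were higher in replicate 2 and 4 did not pass, with a median ratio of 0.01. This compares with 47.6% of all detected genes passing in either direction, and 74.4% of those at 100 CPM or more. At the fixed BCV 0 of the 11 passed. Mir122, the most abundant miRNA of liver, had a ratio of 0.44 at 65.1 ± 13.9 CPM, near the 0.45 of Mir33. The other liver marker, Mir192, had a ratio of 0.007. Apart from Mir122, the ratios of the list ran from -0.32 to 0.22.

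Genes with a reported response to low oxygen were set beside Mir210. Of 10 listed, 9 were analysed and 8 detected, with a median of 4854 CPM over the 9. Mir26b (16696 ± 175 CPM), Mir181c (16141 ± 782 CPM), Mir23b (9662 ± 445 CPM) and Mir322 led the list. Mir210 at 345 ± 45.9 CPM stood far below these 4, but not below the whole list, whose detected genes ran down to 4.17 ± 0.31 CPM. Here too, counts of genes that share a mature arm can leave out its reads. In this list 3 genes were higher in replicate 1, 2 were higher in replicate 2 and 3 did not pass, with a median ratio of 0.06. Against the 47.6% of all detected genes, 5 of 8 passed here, and 0 did at the fixed BCV. These 5 are the genes of the list at 100 CPM or more, a level at which 74.4% of all genes passed. The ratio of Mir210, 0.27, was above that of each of the 4 leading genes, of which the highest was 0.10 for Mir322.

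The other mir-378 genes were near the limit of detection. Mir378d had 25 reads in replicate 1 and 10 in replicate 2, Mir378c had 6 and 18, and Mir378b had 2 and 4. Mir378d was the only one of the 3 detected, at 2.97 ± 1.54 CPM, and it did not pass the binomial test (adjusted p = 0.0813). Opposite Gm25301, by contrast, the reads came to 2085 ± 60.9 CPM. If only reads with 1 place were counted, any reads that fit more than 1 mir-378 gene were left out. How far these levels depart from those of the mature miRNAs was not tested.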

How the data were processed

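Small RNA with inserts below 30 nt had been sequenced from 2 midbrain libraries of 1 group. Each deposited table gives whole-number read counts for the miRNA genes of 1 library, on mm10 with GENCODE release M4, per the descriptions deposited with the files. Which aligner, counter and trimming were used is not given in the sources used here. The column layout matches STAR's gene counts, which keep only reads with a single alignment, a reading of the tables and not a statement of the authors. Rows that name no gene, 54.9% of reads in replicate 1 and 55.8% in replicate 2, stayed out of library sizes and tests. They included reads mapped to several places (35.3% and 36.5% in replicates 1 and 2).

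Of 1973 gene identifiers 1894 matched GENCODE M21 symbols. CPM was computed over the summed sense counts. Errors are SDs over both libraries (n = 2). The labels call the libraries biological replicates from separate pools. Exact binomial tests with Benjamini-Hochberg adjustment at 0.05 were run on detected genes and tested on simulated data. The simulated counts held counting error only, without spread between pools, so they cannot show how the tests perform on these libraries. TMM factors and a fixed-BCV exact test came from edgeR 4.0.16, and RLE size factors from DESeq2 1.42.0, in R 4.3.3. Other steps used Python 3.11.15, numpy 2.4.6, scipy 1.17.1, pandas 2.3.3 and matplotlib 3.10.9. Sequences came from RefSeq (GRCm38.p6). The genes and lists were chosen with earlier results of these data known. Named genes were the 6, the nearest genes in level, and, in the 4 lists of related miRNAs (shared core, lipid, low oxygen and mir-378), the 4 highest and any with 0 reads. Of the cell type markers, those named were chosen after their values were seen, as were Mir503 and Mir122. Mir497, Mir24-1, Mir9-1, Mir142 and Mir1a-2 were not analysed here.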

Additional observations from a re-analysis of the deposited data

Results flagged for a closer look

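Reads that mapped to several places entered no comparison and are not split by gene. They numbered 4816290 in replicate 1 and 4391928 in replicate 2, or 0.783 and 0.827 times the reads counted to miRNA genes. The run of 27 bases that Mir103-1 and Mir103-2 share is of the kind that would place reads there, but the share of mir-103 in these reads was not tested.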

How the results depend on the processing

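Scaling with TMM or RLE factors kept the level of each of the 6 genes within 1 SD. A mean over both libraries could hardly move here, because the factors of replicates 1 and 2 offset each other (1.017 and 0.983 for TMM). With all reads of the library as the denominator, the levels in CPM were 1074 for Mir107, 930 for Gm25301, 154 for Mir210, 51.1 for Mir33, 20.4 for Mir103-2 and 1.68 for Mir103-1. With the most abundant gene left out of the denominator they were 3019, 2613, 432, 143, 57.4 and 4.74 CPM in the same order. Both shifts follow from the denominators. The order of the 6 levels held per 100 bases of annotated gene and in each library alone, and 4 of its 5 steps held with the length of Mir378a. Counting either strand could not change the order, since the unused strand of each gene had 0 reads. With edgeR's exact test at a BCV of 0.2, 6 genes differed in place of 196, and the ratios of Mir107 (-0.15), Mir33 (0.45), Mir210 (0.27) and Gm25301 (-0.060) no longer passed. That test adds spread between pools. With a minimum of 50 reads Mir103-1 was not tested. No ratio of the 6 genes changed sign with TMM or RLE factors, the only alternatives run that could alter it. No paired analysis was possible because there was only 1 group. With 2 libraries, spread between pools and counting error limit what can be told of Mir103-1, which had 21 and 22 reads.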
